A study of Homo sapiens with 12 samples.

Results

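The genes described here are 10 cytosolic and mitochondrial heat shock genes, followed across 3 lines of Kelly cells with and without induction of a short hairpin RNA. They were chosen by name (HSPA6, HSPA1A, HSPA1B, HSPA8, HSPB1, DNAJB1, HSPH1, HSP90AA1, HSPD1 and HSPE1), and all 10 were found among the 60660 gene identifiers of each expression table. Kelly is an established human neuroblastoma cell line, labelled adrenergic and MYCN-amplified. Each line carried a doxycycline-inducible short hairpin RNA, directed at RCOR1 (shRCOR1), at RCOR2 (shRCOR2) or at no target (shCTRL). RCOR1 and RCOR2 are corepressor subunits of the CoREST complex, and the study asked what each does in transcription. The 6 groups were induced shRCOR1, untreated shRCOR1, induced shRCOR2, untreated shRCOR2, induced shCTRL and untreated shCTRL cells, with 2 libraries each. Induction was with 2 µg/mL doxycycline. The time label and the study design give 72 h, whereas the treatment text gives 24 or 48 h, so the length of induction is uncertain. The labels give 1 hairpin line per target and do not say whether a line was a clone, or how the 2 libraries of a group were grown; the p-values below rest on the spread between these libraries, which may be technical.

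Heat shock proteins are chaperones that bind unfolded protein and either hold it, refold it or pass it on for degradation. In the cytosol, J-domain proteins such as DNAJB1 hand substrates to HSP70 proteins, nucleotide exchange factors such as HSPH1 reset the HSP70, HSP90 matures kinases and receptors, and small heat shock proteins such as HSPB1 hold aggregating protein. In mitochondria, HSPD1 and its lid HSPE1 fold imported protein inside a closed chamber. Stress-induced transcription of these genes is driven mainly by heat shock factor 1, which binds heat shock elements made of alternating GAA and TTC units.

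Depth could be judged only in relative terms, since the tables hold coverage, FPKM (fragments scaled for gene length and library size) and TPM (the same scaled to an equal total in each library) but no counts. The ratio of coverage to FPKM, which scales with depth, differed by 2.16 times between the deepest and the shallowest library, and 14758 to 16026 genes per library reached 1 TPM. Mitochondrially encoded transcripts took 13.3% to 21.4% of all TPM and were higher in replicate 2 of every group. Changes were tested with limma on log2(TPM + 1) over 16842 genes, with p-values adjusted by Benjamini and Hochberg's method over all of them and a threshold of 0.05. This main fit did not pair libraries by replicate number, which was added as a block in an alternative fit. In induced against untreated shRCOR1 cells the targeted gene RCOR1 fell by 0.71 (log2; limma adjusted p = 0.0109), but against the change in shCTRL cells its difference of -0.60 did not pass the test (limma adjusted p = 0.158) without the replicate block (0.0452 with it). RCOR2, which the labels do not give as a target of that hairpin, fell in the same cells by 0.94 (limma adjusted p = 0.00278). Against the change in shCTRL cells its difference of -0.755 did not pass either (limma adjusted p = 0.069) without the replicate block (0.0163 with it). In shRCOR2 cells the targeted gene RCOR2 fell by 1.42 (limma adjusted p = 0.000403), also against the change in shCTRL cells (-1.24, limma adjusted p = 0.0129). The RCOR2 change in shRCOR2 cells minus that in shRCOR1 cells was -0.48 (limma adjusted p = 0.0938). It passed the test only with the replicate block (limma adjusted p = 0.0339). Of 7 adrenergic neuroblastoma markers all 7 were detected. Their summed level was 4816 to 4896 TPM in induced and 5998 to 6110 TPM in untreated shRCOR1 cells, 3467 to 3735 TPM in induced and 5776 to 5799 TPM in untreated shRCOR2 cells, and 4346 to 5707 TPM in induced and 5142 to 5838 TPM in untreated shCTRL cells. Not every marker went with the sum. In shRCOR1 cells 1 of the 7 had a log2 change above 0, PHOX2A (0.565), which passed only with the replicate block (limma adjusted p = 0.00289). In shRCOR2 cells 3 of the 7 did, HAND2, PHOX2A and GATA3, of which GATA3 passed the test (0.46, limma adjusted p = 0.0312). Among markers of other cells, the leukocyte genes PTPRC and CD3E, the endothelial gene PECAM1 and the epithelial gene CDH1 stayed below 0.1 TPM in every library, but other markers did not. The 7 fibroblast and endothelial markers summed to 37.5 to 86.2 TPM in induced and 37.2 to 61.3 TPM in untreated shRCOR1 cells, 44.2 to 58.8 TPM in induced and 37.3 to 80.5 TPM in untreated shRCOR2 cells, and 33.2 to 145 TPM in induced and 44.8 to 151 TPM in untreated shCTRL cells. Of these, the collagen gene COL1A1 reached 87.3 TPM and had its higher value in replicate 2 in all 6 groups. The endothelial gene KDR was at 3.05 and 5.56 TPM in induced shRCOR2 cells and below 1 TPM in the other libraries. VWF was at 1.48 and 2.54 TPM in induced shRCOR1 cells, against 0.661 and 0.822 TPM in untreated cells. Of the 5 tested genes of this list 3 had a log2 change above 0 in shRCOR1 cells. PDGFRB (-1.06) and KDR (-0.33) were lower there, neither passing the test. PDGFRB did pass with the replicate block (limma adjusted p = 0.00401). The summed level of 4 epithelial markers was 7.14 to 22.1 TPM in induced and 0.397 to 1.25 TPM in untreated shRCOR1 cells. It was 1.79 to 2.57 TPM in induced and 0.474 to 2.70 TPM in untreated shRCOR2 cells. In shCTRL cells it was 0.970 to 5.23 TPM in induced and 0.762 to 4.13 TPM in untreated ones. Against the change in shCTRL cells, EPCAM, KRT8 and KRT18 were higher in shRCOR1 cells only with the replicate block (limma adjusted p = 0.22 to 0.389 without it, 0.0316 to 0.0372 with it). The part of these markers in the heat shock results was not tested.

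To show what the promoters of the members share, the 200 bases before each RefSeq start site (GRCh38.p14) were searched on both strands for the heat shock element core. A pair word was GAANNTTC or TTCNNGAA, and a triple word added a further GAA or TTC unit to a pair word, with NN between, and so contains overlapping pair words. All 10 members matched the RefSeq table, with 14 start sites. A pair word was found for 7 members, in 7 of the 14 windows, and a triple word for 3 members, HSPA6, HSPA8 and HSP90AA1. Of all 35116 RefSeq promoter windows of the same length, 9.14% held a pair word and 0.347% a triple word. The windows with a word are shown because their genes include both those that rose most and the gene that fell most, with the words in capitals and the gene's own strand written 5′ to 3′. Stretches annotated as untranslated region in another transcript of the gene were left out, or, for HSPA8 and HSP90AA1, shown only as 30 bases around the words.
HSPA6 (chr1:161524340-161524539, plus strand): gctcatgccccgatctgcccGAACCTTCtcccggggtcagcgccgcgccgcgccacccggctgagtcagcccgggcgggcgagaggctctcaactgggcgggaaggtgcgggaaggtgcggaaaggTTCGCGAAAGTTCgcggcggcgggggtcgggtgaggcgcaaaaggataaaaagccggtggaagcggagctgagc
HSPA1A (chr6:31815343-31815463, plus strand): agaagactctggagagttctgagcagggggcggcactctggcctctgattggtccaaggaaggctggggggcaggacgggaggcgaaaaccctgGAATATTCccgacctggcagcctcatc
HSPA1B (chr6:31827538-31827734, plus strand): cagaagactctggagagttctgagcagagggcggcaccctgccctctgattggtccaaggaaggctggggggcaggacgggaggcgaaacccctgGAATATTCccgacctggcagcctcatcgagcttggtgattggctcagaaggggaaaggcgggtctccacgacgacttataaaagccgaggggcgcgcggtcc
DNAJB1 (chr19:14518421-14518597, minus strand): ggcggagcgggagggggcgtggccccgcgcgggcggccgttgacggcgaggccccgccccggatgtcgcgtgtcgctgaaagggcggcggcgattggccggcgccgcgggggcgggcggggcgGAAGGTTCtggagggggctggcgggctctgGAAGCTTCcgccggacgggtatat
HSPB1 (chr7:76302473-76302543, plus strand): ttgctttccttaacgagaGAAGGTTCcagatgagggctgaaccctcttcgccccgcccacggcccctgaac
HSPA8 (chr11:123062171-123062200, minus strand): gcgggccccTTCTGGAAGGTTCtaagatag
HSP90AA1 (chr14:102087104-102087133, minus strand): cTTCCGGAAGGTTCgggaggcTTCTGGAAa

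The HSPA6 window held the triple word beginning 74 bases before the start site and a separate pair word 180 bases before it. HSPA1A and HSPA1B each held the same pair word, GAATATTC, beginning 106 bases before the HSPA1A start and 105 bases before the HSPA1B start. DNAJB1 held a pair word at each of 77 and 47 bases before the start, and HSPB1 held its word at 182 bases. HSPA8 held a triple word beginning 55 bases before the start, and HSP90AA1 a triple word at 88 bases and a further pair word at 68 bases. No word was found in the windows of HSPH1, HSPD1 and HSPE1. A match is a description of letters and not a mapped binding site.

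In untreated shCTRL cells the members spanned a wide range of levels. HSPA8, the constitutive HSP70, was at 1213 ± 428 TPM (SD, n = 2, as for all means here), above HSPD1 at 832 ± 98.5 TPM, HSP90AA1, the inducible HSP90 isoform, at 734 ± 125 TPM and HSPE1 at 577 ± 117 TPM. HSPB1 was at 363 ± 11.9 TPM, HSPH1 at 119 ± 30.1 TPM and DNAJB1 at 72.8 ± 16.3 TPM. The stress-inducible HSP70 genes were lowest, with HSPA1B at 16.4 ± 2.01 TPM, HSPA1A at 7.98 ± 1.17 TPM and HSPA6 at 0.0624 ± 0.0394 TPM. Neighbours in this order did not overlap between libraries except HSPD1 with HSP90AA1 and HSP90AA1 with HSPE1. The 9 members other than HSPA6 were above 1 TPM in every library, and all 10 passed the filter of 1 TPM in at least 2 libraries. HSPA6 passed it through induced shRCOR1 cells alone, so it could be fitted only because it was high there; its values are given as a description, with no test, and counts of members that passed the test are over the 9 others.

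**Figure D1:**
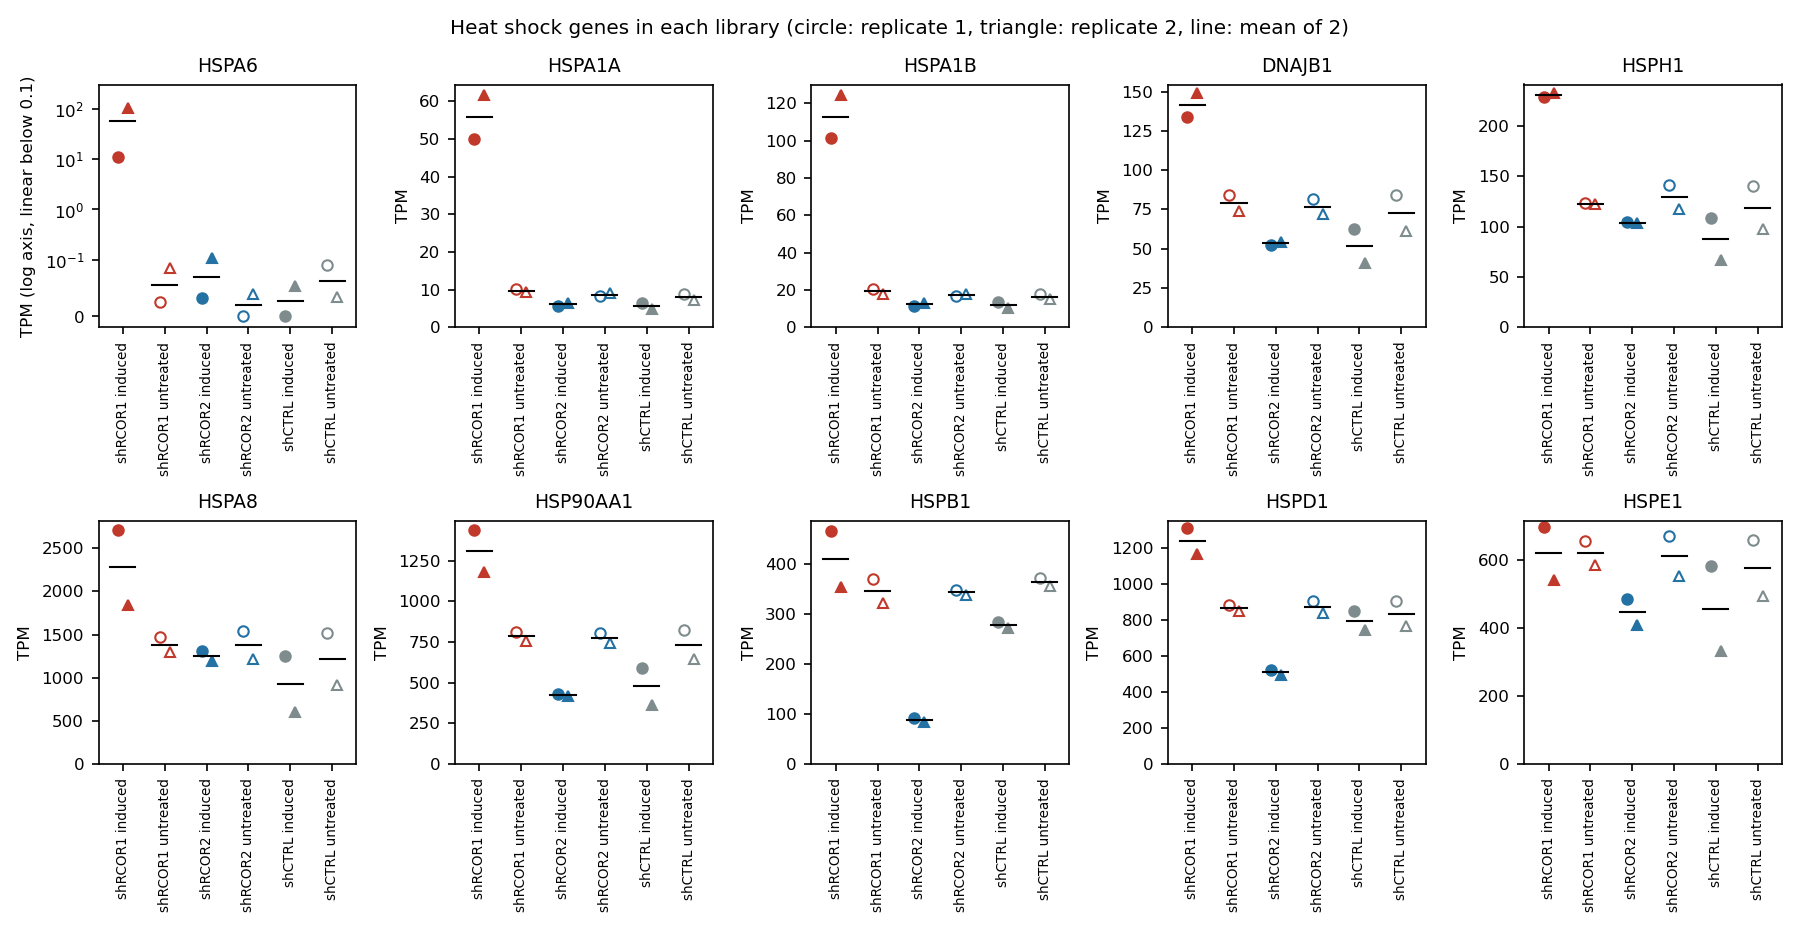
TPM of each of the 10 heat shock genes in the 12 libraries, by line (induced left of untreated); filled symbols are induced, open symbols untreated, circles replicate 1, triangles replicate 2, and lines the mean of 2. HSPA6, HSPA1A and HSPA1B stand apart in induced shRCOR1 cells and HSPB1 in induced shRCOR2 cells, at 91.4 and 83.7 TPM.

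Induction of shRCOR1 was accompanied by higher levels of the stress-inducible cytosolic HSP70 genes, of their J-domain partner DNAJB1, of the exchange factor HSPH1 and of the mitochondrial HSPD1. Of these, HSPA1A and HSPA1B passed against the change in shCTRL cells without the replicate block, and DNAJB1, HSPH1 and HSPD1 only with it. By limma, 5 of the 9 members other than HSPA6 rose in induced against untreated shRCOR1 cells and 0 fell, against 4.98% of all genes tested that rose and 3.64% that fell. With the replicate number as a block, 7 rose, HSPA8 and HSP90AA1 in addition, against 15.4% of all genes. The median log2 change was 0.73 over these 9 members and 0.036 over all genes. The 2 induced libraries were above both untreated libraries for 7 of the 9, against 29.4% of all genes. Summed over the 10 members the level was 7150 and 5760 TPM in induced cells, against 4434 and 4028 TPM in untreated cells. In bulk RNA a change in every cell and a change in a part of the cells cannot be told apart. Recomputing TPM without mitochondrially encoded genes turned the split of all genes called to 578 higher and 645 lower, against 838 higher and 613 lower with them.

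HSPA6 encodes a strictly inducible HSP70 found in human but not in mouse. Its level was 10.8 and 103 TPM in induced shRCOR1 cells, against 0.0258 and 0.0856 TPM in untreated shRCOR1 cells. Both induced libraries were above every other library of the series, the highest of which held 0.108 TPM, but they differed from each other by 3.15 on the log2(TPM + 1) scale, with replicate 2 higher. The change on that scale was 5.05, a scale that understates changes of genes near 0; with 0.1 in place of 1 as the added constant it was 7.78. The value rested on single libraries: without induced replicate 1 it was 6.63, and without induced replicate 2 it was 3.48. The neighbouring HSPA7, with which 35.0% of the 75-base words of HSPA6 transcripts are shared, was at 1.22 and 13.3 TPM in the same 2 induced libraries, against 0.00536 TPM and a listed 0 in untreated shRCOR1 cells, so reads may have been split between them.

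HSPA1A and HSPA1B encode the same major stress-inducible HSP70 from adjacent genes. HSPA1A was at 49.9 and 61.7 TPM in induced shRCOR1 cells, against 10.1 and 9.31 TPM in untreated cells. HSPA1B was at 101 and 124 TPM in induced cells, against 20.4 and 17.9 TPM in untreated cells. For both genes the induced libraries lay far above the untreated ones with no overlap. The log2 change was 2.40 ± 0.17 for HSPA1A (limma adjusted p = 0.000253) and 2.49 ± 0.17 for HSPA1B (limma adjusted p = 0.000193), and both calls held under every alternative run. The genes share most of their sequence (69.3% of HSPA1A words are also in HSPA1B), and HSPA1B stood at 1.92 to 2.09 times HSPA1A in all 12 libraries, so their separate values are uncertain. Summed, they were at 151 and 186 TPM in induced cells, against 30.5 and 27.2 TPM in untreated cells, a log2 change of 2.50 ± 0.17 (limma adjusted p = 0.000193).

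The cofactors of HSP70 moved less. DNAJB1, which stimulates HSP70 and is itself a heat shock target, was at 134 and 149 TPM in induced shRCOR1 cells, against 83.9 and 74.1 TPM in untreated cells. HSPH1, an HSP110 exchange factor, was at 229 and 233 TPM in induced cells, against 123 and 122 TPM in untreated cells. Neither gene's groups overlapped, and the log2 changes were 0.83 ± 0.21 for DNAJB1 (limma adjusted p = 0.0449) and 0.91 ± 0.23 for HSPH1 (limma adjusted p = 0.0466). These calls lie close to the threshold. DNAJB1 lost it without any 1 of the 8 shRCOR1 or shRCOR2 libraries (limma adjusted p = 0.0686 to 0.223) and HSPH1 without the same libraries (limma adjusted p = 0.0677 to 0.198), and with FPKM values (limma adjusted p = 0.0602 for DNAJB1 and 0.0614 for HSPH1), median-of-ratios scaling (0.147 and 0.145, in that order) or no filter (0.0972 and 0.103).

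Among the abundant cytosolic chaperones, HSPA8 was at 2713 and 1849 TPM in induced shRCOR1 cells, against 1476 and 1292 TPM in untreated cells, and HSP90AA1 at 1441 and 1178 TPM, against 811 and 759 TPM. For both, each induced library was above both untreated ones, with a wide gap between the 2 induced libraries. The log2 change was 0.70 ± 0.36 for HSPA8 (limma adjusted p = 0.293) and 0.73 ± 0.22 for HSP90AA1 (limma adjusted p = 0.0781), so neither passed the test; with the replicate block they did (limma adjusted p = 0.0296 for HSPA8 and 0.00644 for HSP90AA1). HSP90AA1 also passed it without either induced shCTRL library (limma adjusted p = 0.0195 in each case). HSPB1 was at 466 and 353 TPM in induced cells and at 370 and 322 TPM in untreated cells; the groups overlapped and the log2 change was 0.23 ± 0.14 (limma adjusted p = 0.351).

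Of the mitochondrial pair HSPD1 passed the test and HSPE1 did not, and a difference between the 2 genes was not tested. HSPD1 was at 1308 and 1166 TPM in induced shRCOR1 cells, against 884 and 846 TPM in untreated cells, with no overlap and a log2 change of 0.51 ± 0.12 (limma adjusted p = 0.0384). HSPE1 was at 698 and 543 TPM in induced cells and at 656 and 586 TPM in untreated cells, so the induced libraries enclosed the untreated ones, and its log2 change was -0.01 ± 0.27 (limma adjusted p = 0.989). HSPD1 and HSPE1 lie head to head on chromosome 2 and start from a shared promoter region. In the deposited annotation HSPE1 (197500140 to 197503449, plus strand) lies inside the span of HSPD1 (197486584 to 197516737, minus strand), and the strand setting of the quantification was not stated. HSPD1 lost its call without any 1 of the 8 shRCOR1 or shRCOR2 libraries (limma adjusted p = 0.0631 to 0.18), with the shRCOR1 libraries alone (limma adjusted p = 0.098), and with FPKM values (limma adjusted p = 0.0741), median-of-ratios scaling (0.282) or no filter (0.0712).

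Induction of shRCOR2 was accompanied by lower levels of the small heat shock protein gene HSPB1, of HSPD1 and of HSP90AA1. Of these, HSPB1 passed against the change in shCTRL cells without the replicate block, and HSPD1 only with it. HSP90AA1 was also lower in induced shCTRL cells (-0.65), and its change was not shown to differ from that one (-0.21, limma adjusted p = 0.826). By limma, 3 of the 9 members fell in induced against untreated shRCOR2 cells and 0 rose, against 6.47% of all genes tested that fell and 7.81% that rose. With the replicate block 6 fell, against 14.8% of all genes. The median log2 change was -0.47 over the 9 members and 0.074 over all genes, and both induced libraries were below both untreated ones for 8 of the 9, against 25.7% of all genes. Summed over the 10 members the level was 3013 and 2777 TPM in induced cells, against 4512 and 3899 TPM in untreated cells. The adrenergic marker sum was lower in the same induced libraries, although the marker GATA3 rose, and the part of these markers in the results was not tested. The split of all genes called depended on the scaling: it was 1316 higher and 1090 lower with TPM, 1963 higher and 981 lower with FPKM, and 994 higher and 1231 lower with median-of-ratios scaling.

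HSPB1 (HSP27), which holds unfolded protein and binds actin, was at 91.4 and 83.7 TPM in induced shRCOR2 cells, against 348 and 337 TPM in untreated shRCOR2 cells. The 2 induced libraries were the lowest of the whole series for this gene, and the next lowest was at 271 TPM. The log2 change was -1.96 ± 0.14 (limma adjusted p = 0.000289), and it passed the test under every alternative run, with a range from -2.02 to -1.90 when each library was left out. HSPD1 was at 521 and 493 TPM in induced cells, against 903 and 838 TPM in untreated cells, again with no overlap; its log2 change was -0.78 ± 0.12 (limma adjusted p = 0.0061), and the call was lost without induced replicate 2 (limma adjusted p = 0.0529). HSP90AA1 was at 429 and 420 TPM in induced cells, against 804 and 742 TPM in untreated cells, with a log2 change of -0.86 ± 0.22 (limma adjusted p = 0.0335). That call was lost without any 1 of the 4 shRCOR2 or the 2 untreated shRCOR1 libraries (limma adjusted p = 0.0556 to 0.155), with FPKM (limma adjusted p = 0.0508), with median-of-ratios scaling (0.0811) and with no filter (0.0845).

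The other 6 of the 9 members did not pass the test in shRCOR2 cells. HSPA1A was at 5.65 and 6.56 TPM in induced cells, against 8.27 and 9.0 TPM in untreated cells, and HSPA1B at 11.4 and 13.0 TPM, against 16.6 and 17.9 TPM. DNAJB1 was at 52.4 and 54.3 TPM in induced cells, against 81.7 and 71.8 TPM, and HSPE1 at 484 and 409 TPM, against 673 and 555 TPM. All 4 had both induced libraries below both untreated ones. With the replicate block, DNAJB1 (log2 change -0.52, limma adjusted p = 0.0402), HSPA1B (-0.47, limma adjusted p = 0.0462) and HSPE1 (-0.46, limma adjusted p = 0.0271) passed the test; DNAJB1 also passed when the shRCOR2 libraries alone were fitted (limma adjusted p = 0.0397). HSPH1 (104 and 103 TPM in induced cells, against 141 and 117 TPM) had a log2 change of -0.31, and HSPA8 (1313 and 1194 TPM, against 1537 and 1211 TPM) one of -0.12. HSPA6 was at 0.0324 and 0.108 TPM in induced cells, against a listed 0 and 0.0384 TPM in untreated cells, too low in both groups for a fold change.

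In shCTRL cells, where the hairpin has no target, 0 of the 9 members passed the test in induced against untreated cells, as did 0% of all genes tested (limma). At an unadjusted p under 0.05 there were 5 members, against 5.57% of all genes, and with the replicate block 0 members passed the adjusted threshold, against 0.0594% of all genes. All 10 log2 changes were below 0 in the shCTRL comparison, with a median of -0.44 over the 9 members other than HSPA6 and -0.02 over all genes. The values nearest to 0 were those of HSPA6, at a listed 0 and 0.0537 TPM in induced and 0.0903 and 0.0345 TPM in untreated cells, and of HSPD1, at 849 and 741 TPM in induced and 902 and 763 TPM in untreated cells. HSP90AA1 was at 591 and 364 TPM in induced shCTRL cells, against 822 and 645 TPM in untreated cells, a log2 change of -0.65 ± 0.22 (limma adjusted p = 0.871). HSPB1 was at 283 and 271 TPM in induced cells, against 372 and 355 TPM in untreated cells. For 4 members both induced libraries were below both untreated ones, against 15.6% of all genes. The shCTRL libraries varied widely: HSPA8 was at 1247 and 600 TPM in induced cells, against 1515 and 910 TPM in untreated cells, and HSPE1 at 583 and 332 TPM in induced cells, against 659 and 494 TPM in untreated cells.

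**Figure D2:**
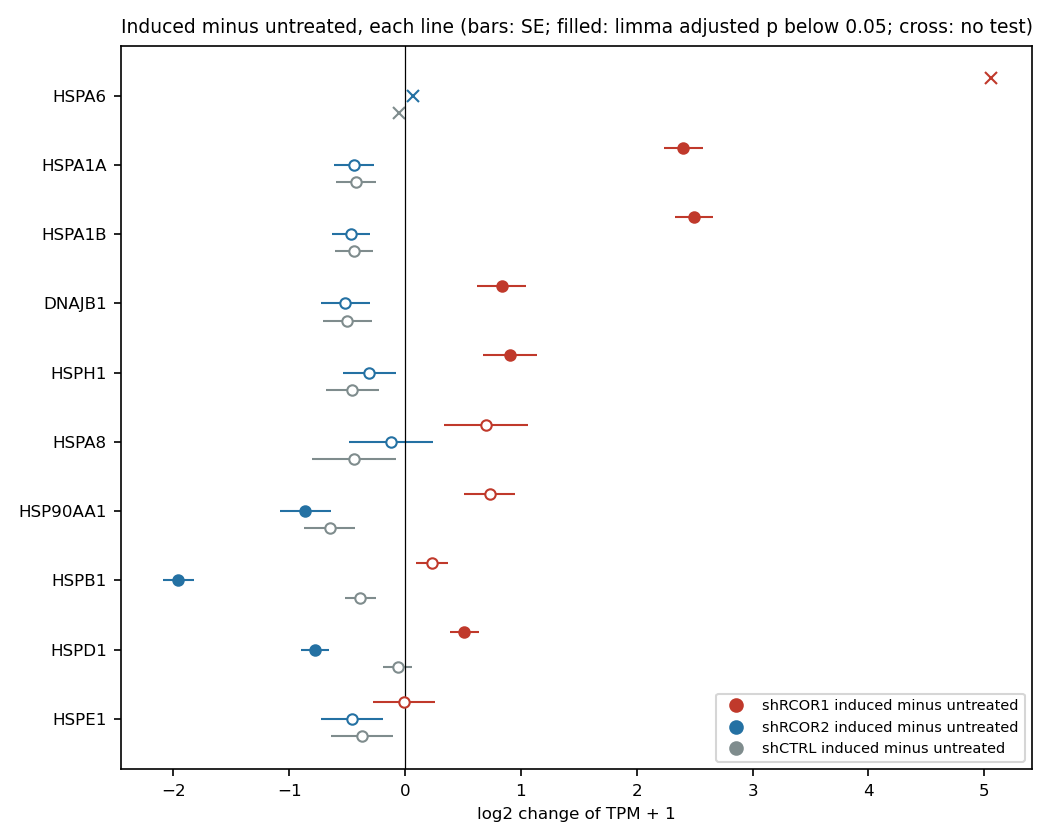
Log2 change of TPM + 1, induced minus untreated, for each gene in shRCOR1, shRCOR2 and shCTRL cells, with bars for the standard error; filled points passed limma's adjusted p of 0.05, and crosses mark HSPA6, shown with no test. In shRCOR1 cells 5 genes are filled to the right of 0 and in shRCOR2 cells 3 to the left, whereas in shCTRL cells 0 are filled.

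Whether a change differed between lines was tested as the difference of 2 changes. Against the change in shCTRL cells, the change in shRCOR1 cells was higher for HSPA1A by 2.83 ± 0.24 (limma adjusted p = 0.00214) and for HSPA1B by 2.93 ± 0.23 (limma adjusted p = 0.00214), 2 of the 9 members other than HSPA6, against 0.843% of all genes that were higher. The 2 genes held under every alternative. All 9 differences were above 0. Those of DNAJB1 (1.33 ± 0.30, limma adjusted p = 0.0759), HSP90AA1 (1.38 ± 0.31, limma adjusted p = 0.0773) and HSPH1 (1.36 ± 0.33, limma adjusted p = 0.0961) missed the threshold. HSPB1 (0.62 ± 0.19), HSPD1 (0.58 ± 0.18), HSPA8 (1.14 ± 0.51) and HSPE1 (0.36 ± 0.38) had limma adjusted p-values from 0.171 to 0.796. With the replicate block 8 of the 9, all but HSPE1, were higher in shRCOR1 cells, against 6.59% of all genes. Without induced shCTRL replicate 1 the count was 5, with DNAJB1 (limma adjusted p = 0.0341), HSPH1 (0.0344) and HSP90AA1 (0.0238) added. The split of all genes called here was 142 higher and 74 lower, 128 higher and 112 lower with FPKM, and 16 higher and 2 lower with the 4 groups alone in the fit.

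The change in shRCOR2 cells was lower than that in shCTRL cells for HSPB1, with a difference of -1.57 ± 0.19 (limma adjusted p = 0.0119), 1 of the 9 members, against 1.2% of all genes that were lower. The HSPB1 call was lost without any 1 of the 4 shRCOR2 libraries or untreated shCTRL replicate 2 (limma adjusted p = 0.0581 to 0.0668). HSPD1 differed by -0.71 ± 0.18 (limma adjusted p = 0.0778) and passed with the replicate block (limma adjusted p = 0.00323), when 2 members were lower, against 5.8% of all genes, and without mitochondrially encoded genes (limma adjusted p = 0.0357). The other 7 differences ran from -0.21 to 0.32 with limma adjusted p-values from 0.826 to 0.989; the difference was -0.02 ± 0.24 for HSPA1A and -0.21 ± 0.31 for HSP90AA1. HSP90AA1 thus passed the test within shRCOR2 cells but its change was not shown to differ from that in shCTRL cells. The comparisons of shRCOR1 and of shRCOR2 with shCTRL share the shCTRL libraries. The split of all genes called was 150 higher and 202 lower, 94 higher and 250 lower with median-of-ratios scaling, 0 higher and 8 lower with the 4 groups alone, and 1504 higher and 977 lower with the block.

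Set against each other, the change in shRCOR2 cells was lower than that in shRCOR1 cells for 7 of the 9 members other than HSPA6, against 5.97% of all genes that were lower (limma). The difference was -2.85 ± 0.24 for HSPA1A, -2.96 ± 0.23 for HSPA1B, -2.19 ± 0.19 for HSPB1, -1.59 ± 0.31 for HSP90AA1, -1.35 ± 0.30 for DNAJB1, -1.29 ± 0.18 for HSPD1 and -1.21 ± 0.33 for HSPH1, with limma adjusted p-values from 0.000785 to 0.0476. HSPA8 (-0.82 ± 0.51, limma adjusted p = 0.365) and HSPE1 (-0.45 ± 0.38, limma adjusted p = 0.519) did not pass. The calls of HSPA1A, HSPA1B, HSPB1 and HSPD1 held under every alternative run. Each of the other 3 was lost without some single library: HSP90AA1 without any 1 of the untreated shRCOR1 or the shRCOR2 libraries or induced shRCOR1 replicate 1 (limma adjusted p = 0.0506 to 0.0579), and DNAJB1 (0.0548 to 0.0859) and HSPH1 (0.0915 to 0.143) without any of the 8 libraries of these lines. Other processing ended the calls of HSP90AA1 (median-of-ratios scaling, limma adjusted p = 0.0517), DNAJB1 (median-of-ratios scaling, 0.0637, and no filter, 0.0579) and HSPH1 (FPKM, 0.0675, median-of-ratios scaling, 0.111, and no filter, 0.109). The split of all genes called was 875 higher and 1005 lower with TPM and 1368 higher and 868 lower with FPKM.

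**Figure D3:**
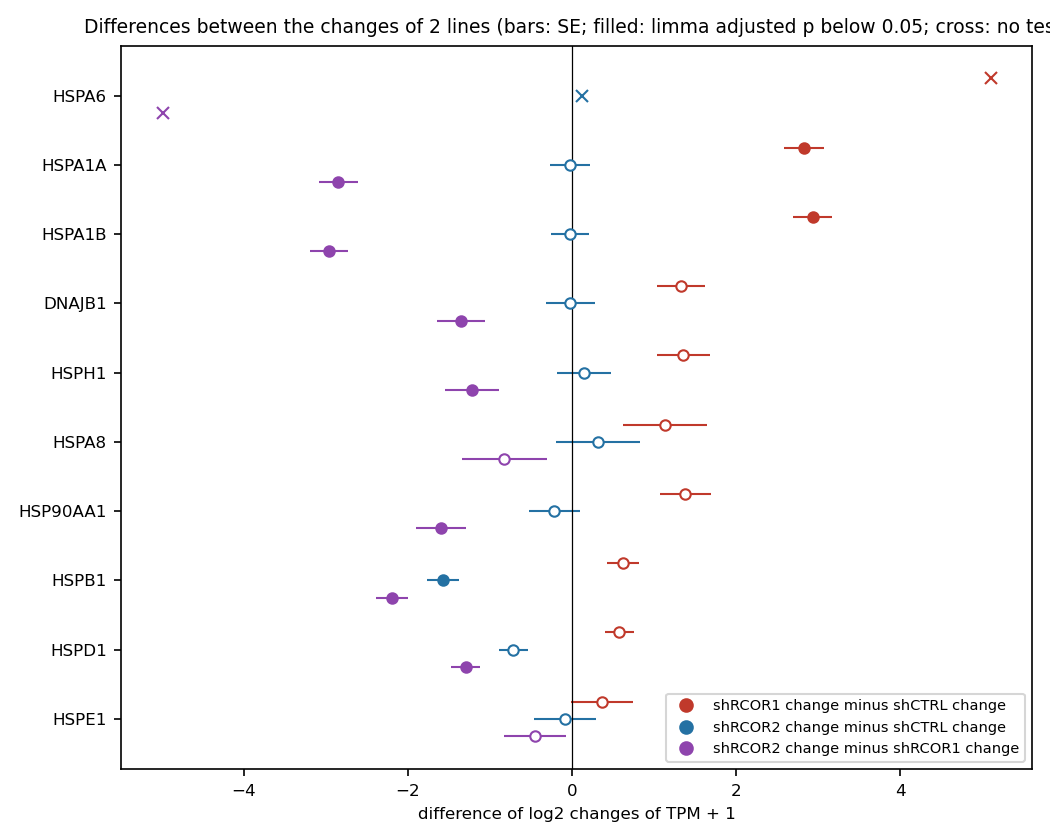
Difference between the log2 changes of 2 lines for each gene, with bars for the standard error; filled points passed limma's adjusted p of 0.05, and crosses mark HSPA6, shown with no test. HSPA1A and HSPA1B are filled in both comparisons with shRCOR1, at 2.83 and 2.93 against shCTRL, and HSPB1 in both comparisons with shRCOR2, at -1.57 against shCTRL and -2.19 against shRCOR1.

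Before induction no difference between the lines was detected in these genes. In untreated shRCOR1 against untreated shCTRL cells, and in untreated shRCOR2 against untreated shCTRL cells, 0 of the 9 members and 0% of all genes passed the test (limma); at an unadjusted p under 0.05 there were 0 members in each comparison, against 0.677% and 0.73% of all genes. With the replicate block 0 of the 9 members and 0% of all genes passed in each comparison as well. The median log2 difference over the 9 members was 0.12 for shRCOR1 and 0.092 for shRCOR2 cells.

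The 2 libraries of a group differed in the same direction for several members. HSPA8, HSP90AA1, HSPB1, HSPD1 and HSPE1 were lower in replicate 2 than in replicate 1 in all 6 groups, with a median difference of -0.45 (log2) for HSPA8 and -0.32 for HSPE1. The largest such difference outside HSPA6 was -1.06, for HSPA8 in induced shCTRL cells. HSPA1A and HSPA1B were higher in replicate 2 in 3 groups and lower in 3. Mitochondrially encoded transcripts were higher in replicate 2 of every group, and their part in these differences was not tested.

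**Figure D4:**
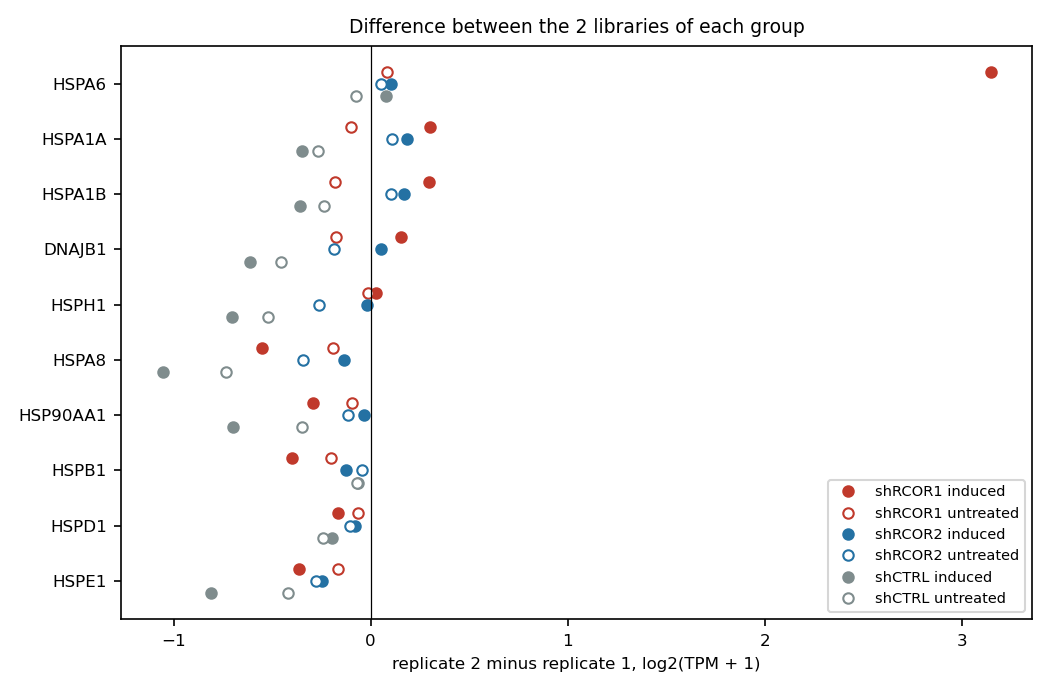
Replicate 2 minus replicate 1 on the log2(TPM + 1) scale for each gene in the 6 groups; filled points are induced, open points untreated. HSPA6 in induced shRCOR1 cells stands at 3.15, and the 5 genes HSPA8, HSP90AA1, HSPB1, HSPD1 and HSPE1 lie left of 0 in every group.

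Across the 12 libraries the members fell into related patterns, given here as a description, since the libraries share lines, treatment and replicate. Pearson's r of log2(TPM + 1) was 0.976 between DNAJB1 and HSPH1, 0.962 between DNAJB1 and HSP90AA1, and 0.935 between HSPA6 and HSPA1A, and at the other end 0.161 between HSPA6 and HSPE1 and 0.269 between HSPA8 and HSPB1. HSPB1 was nearest to HSPD1, at 0.896. Among 11475 other genes with a mean of at least 5 TPM, those most like DNAJB1 were NOCT (0.978), C11orf96 (0.977) and USP10 (0.977). Those most like HSPB1 were EIF4EP2 (0.990), LUC7L2 (0.987) and SRXN1 (0.987), and CCT2 (0.986) and RAB2A (0.982) were among those most like HSPD1.

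Of the 66 tested genes on the other chaperone lists, 11 rose in induced against untreated shRCOR1 cells (16.7%, against 4.98% of all genes) and 0 fell. Against the change in shCTRL cells 3 of the 66 were higher, HSPA2, HSPA4 and CHORDC1 (4.55%, against 0.843% of all genes), and 0 were lower. In shRCOR1 cells 2 of 6 tested other HSP70 and HSP110 genes rose, HSPA2 (log2 change 0.77, limma adjusted p = 0.00937) and HSPA4 (0.53, limma adjusted p = 0.00738), and 0 fell. Of 16 HSP90 genes and co-chaperones 2 rose: HSP90AB1, the constitutive HSP90, was at 3720 and 3410 TPM in induced shRCOR1 cells, against 2167 and 2063 TPM in untreated cells (0.75, limma adjusted p = 0.00718), and CHORDC1, an HSP90-binding protein, rose by 0.64 (limma adjusted p = 0.00733). Of 11 other J-domain proteins 2 rose (DNAJB5 and DNAJA2), and of 8 subunits of the TRiC chaperonin, which folds actin and tubulin, 1 rose (CCT8). Of 13 mitochondrial chaperones and proteases 3 rose: the protease LONP1 (0.96, limma adjusted p = 0.0274), GRPEL2 (0.72, limma adjusted p = 0.0343) and HSPA9, the mitochondrial HSP70 (0.60, limma adjusted p = 0.0109). These 3 were also higher in induced shCTRL cells, by 0.51, 0.38 and 0.28 in that order, without passing the test. Against the shCTRL change 0 of the 13 were higher, with or without the replicate block. Of 15 other heat shock response targets reported here 2 rose and 0 fell: UBB, a polyubiquitin gene (0.67, limma adjusted p = 0.0171), and CHORDC1, counted above. BAG3, a cochaperone and classical heat shock target, was at 30.9 and 33.0 TPM in induced and 30.0 and 29.5 TPM in untreated shRCOR1 cells and did not pass the test. The heat shock factor genes HSF1 (106 and 114 TPM in induced cells, against 89.3 and 85.8 TPM, limma adjusted p = 0.0889) and HSF2 (42.9 and 46.1 TPM, against 36.5 and 35.8 TPM, limma adjusted p = 0.0792) did not pass without the replicate block. The list medians ran from 0.097 (3 small heat shock proteins, of which 0 passed) to 0.46 (J-domain proteins), against 0.036 over all genes. With the replicate block more genes of these lists passed, against 15.4% of all genes that rose and 12.1% that fell. Of the 15 response targets 9 rose, and of the 11 J-domain proteins 6. Of the 16 HSP90 genes and co-chaperones 4 rose and 1 fell, and of the 13 mitochondrial genes 4 rose and 1 fell. Of the 3 small heat shock proteins 1 rose and 1 fell. Of the 11 genes named by rule from these lists in shRCOR1 cells, 0 kept their call without each library in turn.

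In shRCOR2 cells 13 of the 66 genes fell (19.7%, against 6.47% of all genes) and 2 rose (3.03%, against 7.81%). Against the change in shCTRL cells 3 of the 66 were lower, BAG3, CCT8 and HSPA9 (4.55%, against 1.2% of all genes), and 0 were higher. Of the 16 HSP90 genes and co-chaperones 5 fell and 0 rose. BAG3 was at 7.78 and 9.01 TPM in induced shRCOR2 cells, against 26.2 and 28.9 TPM in untreated cells (-1.60 ± 0.15, limma adjusted p = 0.00066). BAG2 (-0.74, limma adjusted p = 0.0301), CACYBP (-0.65, limma adjusted p = 0.0499) and the HSP90-bound immunophilin FKBP4 (-0.58, limma adjusted p = 0.0396) fell too. These 3 were also lower in induced shCTRL cells (-0.32, -0.30 and -0.29) without passing the test. Their changes were not shown to differ from those in shCTRL cells (limma adjusted p = 0.485 to 0.588). Of 8 TRiC subunits 2 fell: CCT8 was at 190 and 185 TPM in induced cells, against 410 and 393 TPM (-1.09, limma adjusted p = 0.000336), and CCT2 at 193 and 180 TPM, against 426 and 373 TPM (-1.09, limma adjusted p = 0.00378). Of 13 mitochondrial genes 3 fell, GRPEL1, HSPA9 and TRAP1, and 1 rose, HSCB, which serves iron-sulfur cluster assembly. HSPA4L of 6 HSP70 and HSP110 genes and UBB fell, and DNAJB2 of 11 J-domain proteins rose. On the list of 4 heat shock factor genes HSBP1 fell, which encodes a factor-binding protein and not a factor. The factors on it, HSF1, HSF2 and HSF4, did not pass (log2 changes 0.10, 0.14 and 0.18). Of 15 heat shock response targets 5 fell and 0 rose, some of them counted above since the lists overlap, and of 3 small heat shock proteins 0 passed. With the replicate block, 10 of the 16 HSP90 genes and co-chaperones fell and 1 rose, against 14.8% and 21.4% of all genes. Of the 8 TRiC subunits 6 fell, of the 15 response targets 8 and of the 3 small heat shock proteins 2. Of the 13 mitochondrial genes 6 fell and 2 rose. Of the 14 genes named by rule from these lists in shRCOR2 cells, 3, BAG3, CCT8 and CCT2, kept their calls without each library in turn. In shCTRL cells 0 genes of these lists passed the test.

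**Figure D5:**
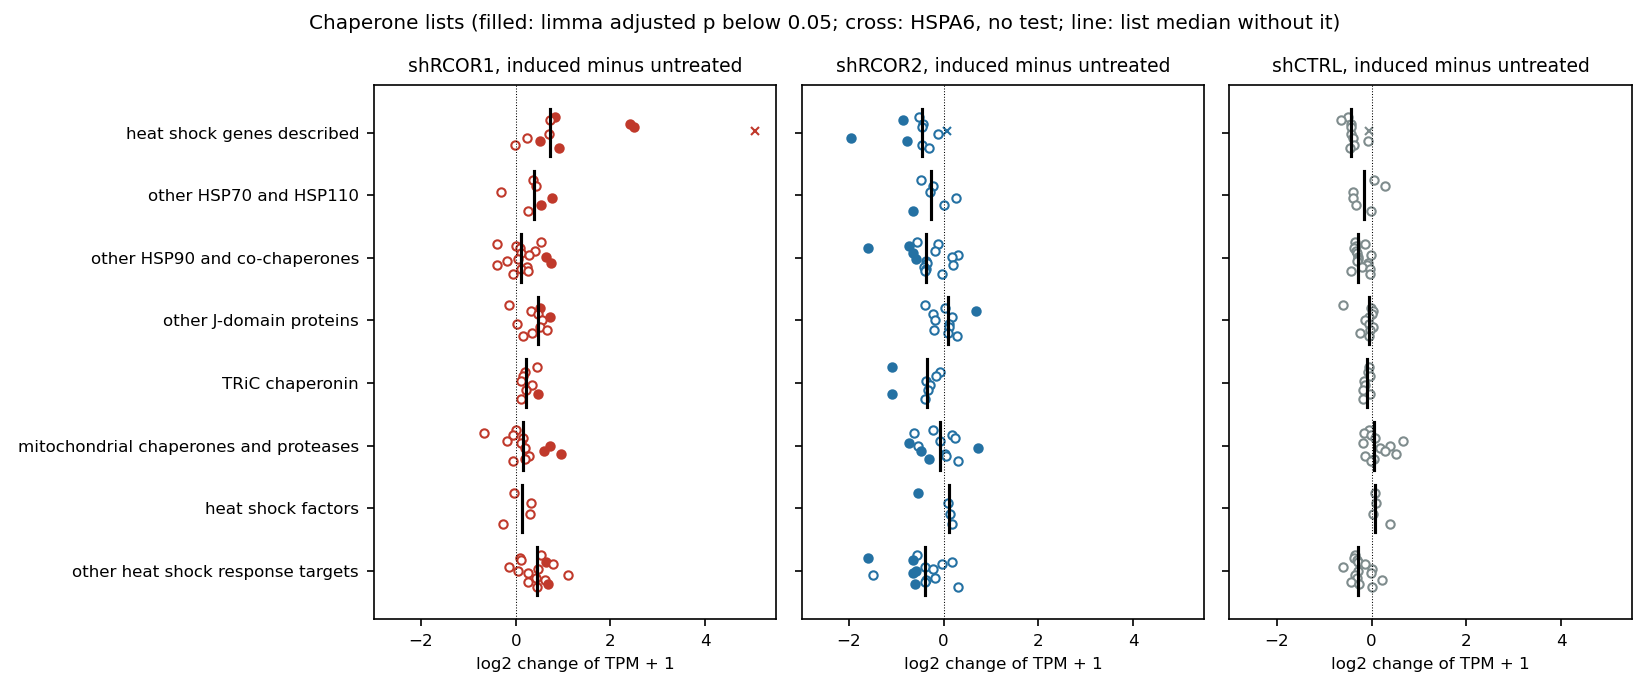
Log2 change of TPM + 1, induced minus untreated, for the 10 heat shock genes and 7 chaperone lists in shRCOR1, shRCOR2 and shCTRL cells; each point is a gene, filled where limma's adjusted p was below 0.05, crosses mark HSPA6, shown with no test, and the vertical line is the list median without it. In shRCOR1 cells all filled list genes lie right of 0, and in shRCOR2 cells BAG3 (-1.60) lies furthest left of the filled list genes.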

How the data were processed

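RNA-seq was made with a strand-specific kit from total RNA of 12 Kelly libraries, per the labels' protocols. Reads were trimmed with Trim Galore 0.6.7, aligned with HISAT2 2.2.1 to GRCh38 (hg38) and quantified with StringTie 2.1.7, per the submitters' processing notes; these notes give no annotation release, and neither how strand was set nor how reads matching several genes were treated. The deposited tables hold coverage, FPKM and TPM per gene. Read counts were not used here, so depth is known only in relative terms and no counting interval is given.

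From the TPM as deposited by the authors, log2(TPM + 1) was fitted with limma 3.58.1 (R 4.3.3; trend, 6 group means, all 12 libraries) over the 16842 genes with at least 1 TPM in at least 2 libraries; FPKM as deposited by the authors and coverage as deposited served for an alternative and for relative depth. Identifiers repeated in a table (0 to 2 per file) were summed. The script was tested on simulated data drawn with no replicate effect. That test cannot show how the fit without the block behaves on paired libraries. Replicate numbers come from the labels. Deviations of same-numbered libraries correlated at 0.372 to 0.75 over the 15 pairs of groups, so the numbers pair the libraries. The main fit left this pairing out, so differences shared by same-numbered libraries counted as spread in it. In shRCOR1 cells the standard error was 0.363 for HSPA8 and 0.124 for HSPD1, and 0.196 and 0.063 with the block. Calls described as not passed or as lost without a library are those of the unpaired fit unless the block is named. The replicate block is given where it changes a member's call, and for the other chaperone lists mainly as counts. Shared 75-base words were counted in GENCODE transcripts. Promoters are from RefSeq. Genes named from lists were at most 4 per list and comparison, those with the largest change that passed the test; like genes were the 3 with the highest correlation to DNAJB1, HSPB1 and HSPD1. Some genes that these rules name are not reported here. The members and lists were chosen with earlier results of these data known. Alternatives were other scalings, an added constant of 0.1, no filter, fewer groups, HSPA1A and HSPA1B summed, the block, and each library left out; those for genes named from lists were chosen after seeing the data.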

Additional observations from a re-analysis of the deposited data

Results flagged for a closer look

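These results stood out because a gene's change differed between 2 lines by limma's test of the difference itself. The change in shRCOR1 cells exceeded that in shCTRL cells by 2.83 for HSPA1A and by 2.93 for HSPA1B (log2). The change in shRCOR2 cells differed from that in shCTRL cells by -1.57 for HSPB1. The change in shRCOR2 cells differed from that in shRCOR1 cells by -2.85 for HSPA1A, -2.96 for HSPA1B, -2.19 for HSPB1, -1.35 for DNAJB1, -1.21 for HSPH1, -1.59 for HSP90AA1 and -1.29 for HSPD1. HSPA1A and HSPA1B share most of their transcript sequence, so their results are not separate observations.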

How the results depend on the processing

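The counts of members that passed the test depended on the setting. They are given here over all 10 members, although HSPA6 passed the filter only through induced shRCOR1 cells, so its call is no test. Not counting HSPA6, a choice made after seeing the data, gave 5 for induced against untreated shRCOR1 cells. It gave 7 for the shRCOR2 change against the shRCOR1 change and left the other counts of the main fit as they were. For the shRCOR1 change against the shCTRL change with the replicate block it gave 8. With the block it also gave 7 for induced against untreated shRCOR1 cells and 7 for the shRCOR2 change against the shRCOR1 change. Counts of the remaining settings with shRCOR1 cells were not redone without HSPA6. For induced against untreated shRCOR1 cells the count was 6, and 3 with FPKM, 3 with median-of-ratios scaling and 3 with no filter; leaving out each library gave 2 to 7. For shRCOR2 cells it was 3, 6 with the replicate block, and 1 to 3 leaving out each library. For shCTRL cells and both comparisons of untreated lines it was 0 in every setting. For the shRCOR1 change against the shCTRL change it was 2, 1 with HSPA1A and HSPA1B summed into 1 gene, 9 with the replicate block, and 2 to 5 leaving out each library. For the shRCOR2 change against the shCTRL change it was 1, 2 without mitochondrially encoded genes, 2 with the replicate block, and 0 to 1 leaving out each library. For the shRCOR2 change against the shRCOR1 change it was 8, 5 with median-of-ratios scaling, 5 with no filter, and 4 to 8 leaving out each library. The cause of these shifts was not tested. Beyond the calls given beside the results, the replicate block changed no member's call. Where a library is left out, the lone library of its group is assumed to vary like the others.

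No change of sign occurred outside the settings that leave out a library, and there it befell values none of which passed the test. They included HSPA8 and HSPE1 in shCTRL cells, at -0.44 and -0.37 over all libraries. The ranges for induced minus untreated shRCOR1 cells (log2) were HSPE1 -0.19 to 0.17. The ranges for induced minus untreated shRCOR2 cells (log2) were HSPA8 -0.29 to 0.049. The ranges for induced minus untreated shCTRL cells (log2) were HSPD1 -0.19 to 0.056, HSPA8 -0.97 to 0.087, HSPE1 -0.78 to 0.031. The ranges for the shRCOR1 change minus the shCTRL change (log2) were HSPE1 -0.042 to 0.77. The ranges for the shRCOR2 change minus the shCTRL change (log2) were DNAJB1 -0.32 to 0.29, HSPE1 -0.49 to 0.32, HSPA1A -0.19 to 0.15, HSPA1B -0.20 to 0.16, HSPA1A+HSPA1B -0.21 to 0.17, HSPA8 -0.21 to 0.84, HSPH1 -0.20 to 0.50, HSP90AA1 -0.56 to 0.14. The ranges for untreated shRCOR1 minus untreated shCTRL cells (log2) were HSPA6 -0.050 to 0.032, HSPB1 -0.17 to 0.026, HSPA8 -0.13 to 0.60, DNAJB1 -0.094 to 0.36, HSPH1 -0.19 to 0.33, HSP90AA1 -0.067 to 0.28, HSPD1 -0.061 to 0.18, HSPE1 -0.089 to 0.33. The ranges for untreated shRCOR2 minus untreated shCTRL cells (log2) were DNAJB1 -0.14 to 0.32, HSPE1 -0.11 to 0.31, HSPA1A -0.026 to 0.24, HSPA1B -0.044 to 0.19, HSPA8 -0.15 to 0.58, HSPH1 -0.12 to 0.40, HSP90AA1 -0.089 to 0.26, HSPD1 -0.052 to 0.19, HSPA1A+HSPA1B -0.039 to 0.22. 

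Depth limits HSPA6 outside induced shRCOR1 cells, where it stayed at or below 0.108 TPM.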

Other observations

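Pseudogenes that share sequence with HSPD1, HSP90AA1 and HSPB1 were measured at low levels that went with those of their parent genes. HSPD1P1 was at 24.0 and 20.2 TPM in induced shRCOR1 cells, against 15.1 and 14.3 TPM in untreated shRCOR1 cells, and at 10.2 and 9.39 TPM in induced shRCOR2 cells, against 16.8 and 14.5 TPM in untreated shRCOR2 cells. HSP90AA2P was at 23.3 and 18.4 TPM in induced shRCOR1 cells, against 11.9 and 10.8 TPM in untreated cells. HSPB1P1 was at 0.606 and 0.564 TPM in induced shRCOR2 cells, against 2.41 and 2.30 TPM in untreated cells. These pseudogenes were picked after their values were seen, and whether their reads came from the parent genes was not tested. The share of 75-base transcript words found in any other gene was 9.13% for HSPE1, 5.19% for HSPD1, 3.88% for HSPB1, 3.75% for HSP90AA1, 1.20% for HSPA8 and 0% for DNAJB1 and HSPH1. CRYAB, a small heat shock protein, was at 0.166 and 1.69 TPM in induced shRCOR1 cells, against 0.00519 TPM and a listed 0 in untreated shRCOR1 cells; it was not tested because too few libraries reached 1 TPM, and it too was picked after its value was seen.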
